A study of Mus musculus with 8 samples.

Results

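The guanylate-binding protein family of the mouse was described here through 10 genes, Gbp2 to Gbp11, which were taken by gene symbol from 57010 genes quantified in each library. Of these, 8 had enough reads to be tested among 13378 tested genes, and the same 8 stand in the deposited normalised table of 13751 genes. Gbp10 and Gbp11 were nearly silent. With added iron, Gbp6 and Gbp2 fell by 71.5% and 59.0%. Gbp5 fell by 26.5%, a call that held under 8 of 21 alternative fits. Gbp4, at -27.3%, did not pass the test (edgeR adjusted p = 0.0571), nor did Gbp7, Gbp3, Gbp8 and Gbp9.

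RNA was sequenced from sorted naive CD4 T cells of C57BL/6 mice, genotype wt, whose peripheral lymph nodes were the source. All cultures, the controls included, were grown in RPMI GlutaMAX with foetal calf serum and activated for 20 h on coated antibodies to CD3 and CD28, each at 4 µg/mL. Such antibodies stand in for antigen and costimulation. Each of 4 numbered mice gave 1 control culture without added iron and 1 culture with added iron, labelled FAC, and the iron dose, any vehicle and the animals' age are not given in the sources used here.

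Guanylate-binding proteins are large GTPases of the dynamin superfamily whose genes are switched on by interferons, above all interferon gamma, through the JAK-STAT pathway and the transcription factor IRF1. In infected cells they assemble on the membranes of pathogen-containing vacuoles and on bacteria, and they promote inflammasome signalling. Some carry a lipid (prenyl) anchor at their C terminus, among them mouse GBP2 and GBP5. T cells are among the cells that express the family. The mouse genes lie in 2 clusters. In the RefSeq order of genes, chromosome 3 holds Gbp5, Gbp7, Gbp3, Gbp2b and Gbp2, and chromosome 5 holds Gbp8, Gbp9, Gbp4, Gbp10, Gbp6 and Gbp11.

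Library totals ran from 25410299 to 37350654 estimated reads. Levels are given as CPM, counts scaled to a common library size with TMM factors, and 3 reads, the limit that a count of 0 allows, are worth 0.0816 to 0.119 CPM. Summed transcript levels of 10 CD4 T cell genes were 3693 to 3872 TPM, a unit that also corrects for transcript length, in controls and 3878 to 3977 with FAC. The summed B cell markers reached at most 0.43 TPM and NK cell markers 0.55 TPM, and all 5 neutrophil and mast cell markers were listed at 0. Macrophage and dendritic cell markers summed to 2.38 to 3.14 TPM in controls and 2.98 to 5.08 TPM with FAC. Ncr1, 1 of 5 NK cell markers, and Lyz2, 1 of 8 macrophage and dendritic cell markers, were listed at 0 in every library. No other NK cell, macrophage or dendritic cell marker was. Pf4 of the erythroid and platelet markers, and Col3a1 and Cdh5 of the stromal and endothelial markers, were also listed at 0 in every library. CD8 markers summed to 8.36 to 10.95 TPM in controls and 6.6 to 9.55 TPM with FAC, stromal and endothelial markers to 3.37 to 4.65 and 3.77 to 5.51 TPM, and erythroid and platelet markers to 0 to 8.12 TPM in controls and 0 with FAC. Of these marker genes 14 could be tested, and neither edgeR nor DESeq2 called any of them. Cd8b1 and Cd68 (2 genes) had an unadjusted edgeR p under 0.05, as had 2463 of the 13378 genes tested. The part of these cells in the results was not tested. Tfrc, the transferrin receptor gene, whose transcript is degraded when iron is ample, was 990.7 ± 34.6 CPM in controls and 572.3 ± 31.2 CPM with FAC (SD, n = 4; log2 change -0.79, edgeR adjusted p = 3.97e-07).

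Of the 8 tested members, 3 passed edgeR's test at an adjusted p under 0.05 and all 3 were lower with FAC. Over all tested genes 3.27% passed, and 1.1% passed and were lower. Each of the 8 had at least 19.3 estimated reads in every library, so none was tested on the strength of 1 group alone. Their median log2 change was -0.39, against -0.0014 over all genes tested. In bulk RNA, fewer cells that express a gene and less of its RNA per cell cannot be told apart.

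**Figure D1:**
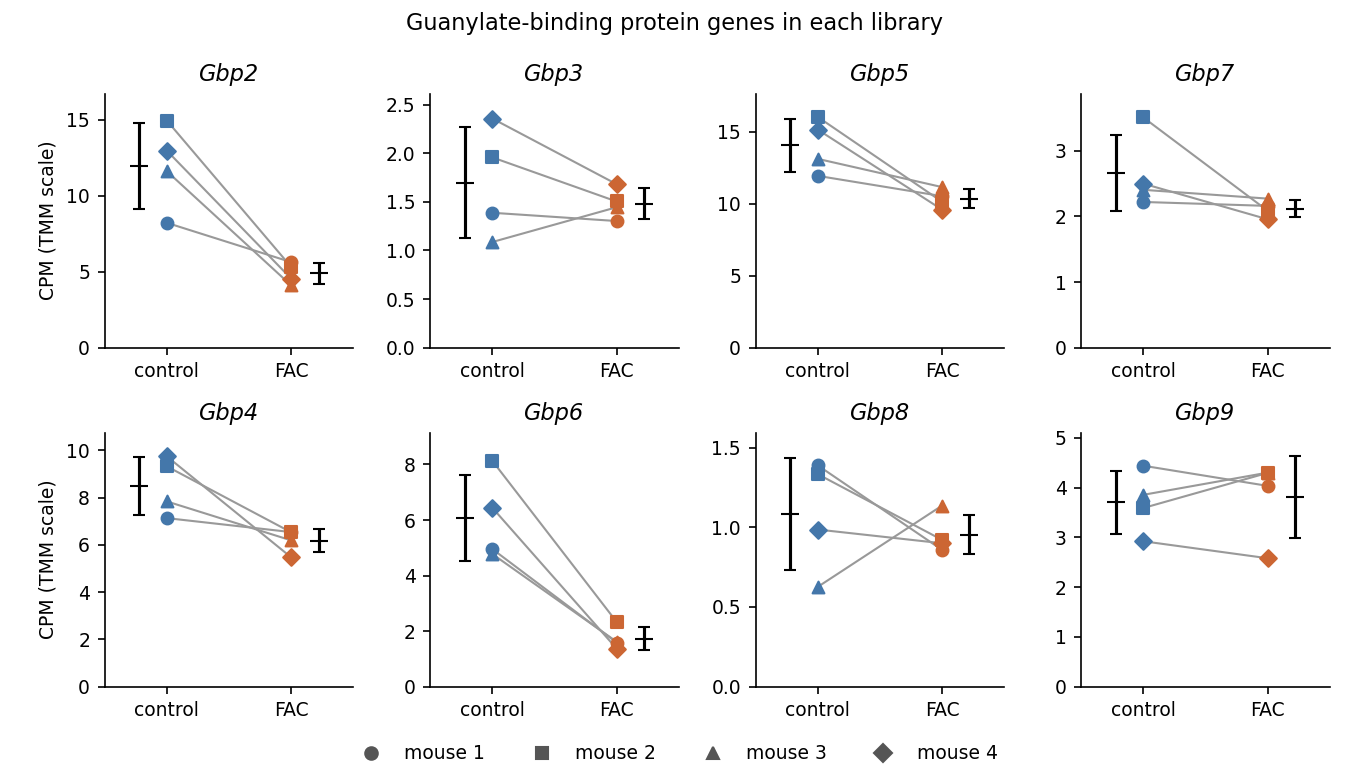
Level of each tested guanylate-binding protein gene in each library, in CPM on the TMM scale. Symbols mark the 4 mice, lines join the control (blue) and FAC (orange) culture of a mouse, and black bars give the group mean ± SD. The 4 FAC libraries lie below the 4 control libraries for Gbp2, Gbp5, Gbp4 and Gbp6, while the groups overlap for Gbp3, Gbp7, Gbp8 and Gbp9.

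Among the chromosome 3 genes, Gbp2 (ENSMUSG00000028270), which acts on vacuoles of intracellular parasites and bacteria, was 8.21, 14.93, 11.6 and 12.95 CPM in control mice 1 to 4 and 5.62, 5.31, 4.10 and 4.54 CPM in FAC mice 1 to 4. Every FAC library lay below every control library, and control mouse 1 was the lowest of the controls. The log2 change was -1.29 ± 0.17 (SE, edgeR adjusted p = 7.13e-04). The change within mouse 1 was -0.55 on the log2 scale, against -1.49, -1.5 and -1.51 in mice 2 to 4.

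Gbp5 (ENSMUSG00000105504), whose product is linked to NLRP3 inflammasome activation, was 11.93, 16.02, 13.11 and 15.14 CPM in the controls and 10.52, 10.13, 11.15 and 9.58 CPM with FAC. The groups did not overlap, but the lowest control, mouse 1, was close to the highest FAC library, mouse 3. The log2 change of Gbp5 was -0.44 with an SE of 0.10 (edgeR adjusted p = 0.0314), and within mice it was lower by 0.18 (mouse 1) to 0.66 (mouse 2). This call was lost when some single libraries were left out. The edgeR adjusted p was 0.104 without control mouse 2, 0.0715 without control mouse 4, and 0.103, 0.0735 and 0.0507 without FAC mouse 2, 3 or 4, while the log2 change stayed between -0.51 and -0.37 when any 1 of the 8 libraries was left out.

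Gbp7, linked in macrophages to assembly of the NADPH oxidase, was 2.22, 3.51, 2.41 and 2.499 CPM in the controls and 2.16, 2.09, 2.27 and 1.96 CPM with FAC. Its level was lower with FAC in 4 of 4 mice, and control mice 2, 3 and 4 lay above every FAC library, but control mouse 1 did not, so the groups overlapped (log2 change -0.33 ± 0.19, SE, edgeR adjusted p = 0.366). Gbp3 was 1.39, 1.96, 1.09 and 2.36 CPM in the controls and 1.303, 1.504, 1.45 and 1.68 CPM with FAC. All 4 FAC values lay inside the control range, and mouse 3 was higher with FAC while the other 3 mice were lower (log2 change -0.20 ± 0.25, SE, edgeR adjusted p = 0.724). Gbp2b, the gene of this cluster outside the 10, was listed at 0 in all 8 libraries.

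The promoter stretches of these 4 chromosome 3 genes are shown because they carry a match to the core of the interferon-stimulated response element (ISRE), a sequence that factors of the IRF family are known to bind. Sequences come from the RefSeq promoter table on build GRCm38.p6, an earlier build than the GRCm39 named for the counts. All are on the plus strand, 5′ to 3′, and lie before the gene's start, with the match in capitals.
Gbp2, chr3:142620579-142620638: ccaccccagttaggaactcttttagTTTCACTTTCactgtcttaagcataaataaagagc
Gbp5, chr3:142496744-142496803: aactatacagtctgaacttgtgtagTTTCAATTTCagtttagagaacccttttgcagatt
Gbp7, chr3:142530258-142530317: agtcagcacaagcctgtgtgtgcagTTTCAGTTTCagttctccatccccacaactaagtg
Gbp3, chr3:142559974-142560033: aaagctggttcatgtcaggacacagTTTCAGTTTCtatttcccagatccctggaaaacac

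Promoters of the other members (Gbp4, Gbp6, Gbp8, Gbp9, Gbp10 and Gbp11) were not searched here. For the 4 genes shown, the search covered the 250 bases before each start on both strands for GAAA and GAAA set 2 bases apart, which on the other strand reads TTTC and TTTC. The match began 59 bases before the start in Gbp2, 53 in Gbp7, 165 in Gbp5 and 45 in Gbp3. Gbp3 held a further match, TTTCTATTTC, that overlaps the one shown, and its other listed start had none. A match to this core was present for 936 of 27025 genes in the table (3.46%), in 978 of 32851 windows (2.98%). The GAS element, a binding sequence of interferon gamma signalling, was searched as TTCNNNGAA, which reads the same on both strands. It matched at TTCTGGGAA and TTCTCAGAA in Gbp5, 245 and 52 bases before the start, and at TTCCAGGAA and TTCTCAGAA in Gbp7, 106 and 87 bases before it. No GAS match lay in these windows of Gbp2 and Gbp3, and 8.13% of genes in the table held one. Gbp2b, listed at 0 in every library, also held an ISRE core match, 137 bases before its start, and no GAS match. Whether such matches bear on the changes with FAC was not tested. These are matches of letters, not measured binding.

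In the chromosome 5 cluster, Gbp6 (ENSMUSG00000104713), whose product is recruited to parasite vacuoles, was 4.96, 8.13, 4.78 and 6.44 CPM in the controls and 1.59, 2.33, 1.62 and 1.37 CPM with FAC. The highest FAC library, mouse 2, was below the lowest control, mouse 3, and the groups did not overlap. The fitted log2 change was -1.81 with an SE of 0.21 (edgeR adjusted p = 2.88e-04), and the change was between -2.23 (mouse 4) and -1.56 (mouse 3) in the 4 mice. Gbp6 and Gbp2 passed under all 21 alternative fits, including those without any 1 library.

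Gbp4 was 7.14, 9.33, 7.84 and 9.75 CPM in the controls and 6.54, 6.54, 6.19 and 5.48 CPM with FAC. The groups did not overlap and the gene was lower with FAC in 4 of 4 mice, by 0.12 (mouse 1) to 0.83 (mouse 4) on the log2 scale. Its log2 change of -0.46 ± 0.12 was about that of Gbp5, but its edgeR adjusted p was 0.0571 and it did not pass. With the mouse as a replicate block it passed (adjusted p = 0.0411, log2 change -0.45), and it also passed without control mouse 1 (adjusted p = 0.0481).

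Gbp8 was 1.39, 1.33, 0.626 and 0.986 CPM in the controls and 0.858, 0.921, 1.14 and 0.900 CPM with FAC. The FAC libraries lay inside the control range, and mouse 3 was higher with FAC, by 0.86 on the log2 scale, while the other 3 mice were lower (log2 change -0.18 ± 0.29, SE, edgeR adjusted p = 0.789). Gbp9, another member found on parasite vacuoles, was 4.44, 3.59, 3.86 and 2.92 CPM in the controls and 4.04, 4.30, 4.30 and 2.58 CPM with FAC. It was lower with FAC in 2 of 4 mice and higher in the other two, with mouse 4 lowest in both groups (log2 change 0.05 ± 0.18, SE, edgeR adjusted p = 0.922).

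Gbp10 and Gbp11 were not tested. Gbp10 had 3.38, 4.00, 10.5 and 11.3 estimated reads in control mice 1 to 4 and 1.39, 0, 3.00 and 0 in FAC mice 1 to 4, so its FAC libraries were at or under the floor of 3 counts. Gbp11 had 1.03 estimated reads in control mouse 4 and was listed at 0 in the other 7 libraries. Counted over the 8 tested members, every FAC library lay below every control library in CPM for 4 (Gbp2, Gbp4, Gbp5 and Gbp6), against 4.89% of all tested genes.

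**Figure D2:**
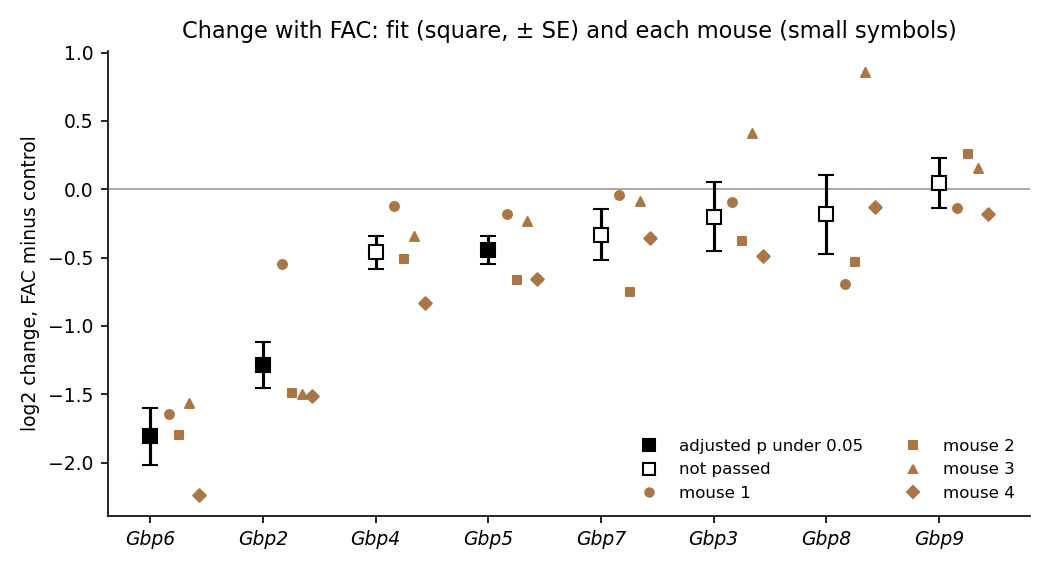
Change with FAC of the 8 tested genes on the log2 scale, ordered by size. Squares give the edgeR estimate ± SE, filled where the adjusted p was under 0.05, and small symbols give the change within each mouse. Gbp6 and Gbp2 lie lowest, at -1.81 and -1.29, and mouse 1 shows the smallest fall of Gbp2, at -0.55.

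Whether members changed by different amounts was examined pair by pair. For each of the 28 pairs of tested members the log2 ratio of their CPM was compared between groups with a two-sided exact permutation test over the 70 assignments of libraries, a comparison added after the data had been seen. In 11 pairs the raw p was 0.0286, the smallest the design allows, and each of these 11 pairs held Gbp2 or Gbp6. None passed after Benjamini-Hochberg adjustment over the 28 pairs (smallest adjusted p = 0.0727). With 11 pairs at the smallest possible raw p, no adjusted p could go under 0.05, so this does not show that members changed alike. This test does not use the pairing of cultures by mouse, and an exact test within 4 mice cannot go below a two-sided p of 0.125. Within mice, the ratio moved in 1 direction in 4 of 4 mice for 15 pairs, the 11 above and Gbp2 with Gbp6, Gbp3 with Gbp5, Gbp3 with Gbp4, and Gbp5 with Gbp9. The log2 ratio of Gbp2 to Gbp5, neighbours in one cluster, was -0.26 ± 0.19 in the controls and -1.09 ± 0.25 with FAC (SD, n = 4). That of Gbp4 to Gbp6, both on chromosome 5, was 0.51 ± 0.22 in the controls and 1.87 ± 0.26 with FAC.

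Levels of different genes were compared on the TPM scale. In the controls the order was Gbp2 (6.98 ± 1.57 TPM), Gbp5 (6.54 ± 0.80), Gbp4 (4.47 ± 0.36), Gbp6 (2.82 ± 0.66), Gbp9 (1.54 ± 0.34), Gbp3 (1.28 ± 0.35), Gbp7 (0.823 ± 0.213), Gbp8 (0.73 ± 0.21), Gbp10 (0.188 ± 0.131) and Gbp11 (0.005 ± 0.010; SD, n = 4). Gbp2 and Gbp5 overlapped, as did each neighbouring pair from Gbp9 down to Gbp8, whereas Gbp5, Gbp4, Gbp6 and Gbp8 each stood clear of the next. With FAC the order became Gbp5 (4.995 ± 0.311 TPM), Gbp4 (3.50 ± 0.22), Gbp2 (2.94 ± 0.41), Gbp9 (1.33 ± 0.28), Gbp3 (0.973 ± 0.260), Gbp7 (0.783 ± 0.099), Gbp6 (0.758 ± 0.120), Gbp8 (0.633 ± 0.067), Gbp10 (0.095 ± 0.128) and Gbp11 (listed at 0). Gbp4 and Gbp2 overlapped, as did neighbours from Gbp9 to Gbp8 and the pair at the end, while Gbp5, Gbp2 and Gbp8 stood clear of the next. Gbp2 moved from the first place to the third, and Gbp6 from the fourth to the seventh.

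The 10 genes together summed to 22.2, 28.4, 23.98 and 26.95 TPM in control mice 1 to 4 and to 16.1, 16.5, 16.4 and 15.1 TPM in FAC mice 1 to 4. The groups did not overlap, and the mean differed by -36.9% with FAC. Gbp2 made up 27.3% ± 3.7 of the summed level in the controls and 18.4% ± 2.4 with FAC, and Gbp6 11% ± 1.5 and 4.72% ± 0.61 (SD, n = 4). Gbp5 took a larger part with FAC, 31.2% ± 1.3 against 25.8% ± 0.6, as did Gbp7, 4.91% ± 0.81 against 3.22% ± 0.55. The groups did not overlap for these 4 shares and overlapped for those of Gbp3, Gbp4, Gbp8, Gbp9, Gbp10 and Gbp11. Shares are parts of the same sum, so lower shares of some members mean higher shares of others. The mean TPM of Gbp5 and of Gbp7 was not higher with FAC. Shares within the family have no counterpart over all genes. Summed by cluster, the 4 chromosome 3 genes had 15.6 ± 2.8 TPM in the controls and 9.69 ± 0.38 TPM with FAC, and the 6 chromosome 5 genes had 9.75 ± 0.50 and 6.32 ± 0.40 TPM, differences of -38.0% and -35.2%.

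**Figure D3:**
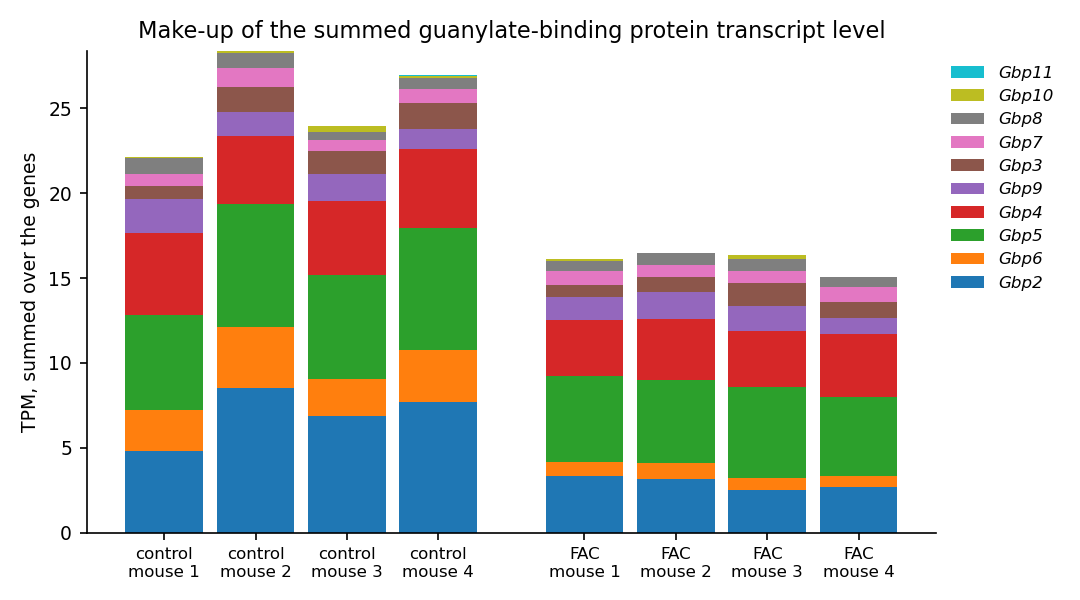
Summed TPM of the 10 guanylate-binding protein genes in each library, with 1 bar per library and 1 colour per gene. The 4 control bars reach 22.2 to 28.4 TPM and the 4 FAC bars 15.1 to 16.5 TPM, and the Gbp2 and Gbp6 segments at the foot are shorter in the FAC bars.

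Reads of similar genes can be split between them by the estimator that made the counts. Of the 75-base windows of Gbp6 transcripts in the GENCODE M21 annotation, 40.4% occur also in Gbp10, and of those of Gbp10, 65.6% occur also in Gbp6. Gbp2 shared 0.955% of its windows with another gene of the family and Gbp5 none, and both had whole-number counts in all 8 libraries (within 0.005). Gbp4 had a whole count in 0 of 8 libraries, Gbp8 and Gbp9 in 1 each, Gbp7 in 2, Gbp6 in 3 and Gbp3 in 6, while 63.6% to 65.2% of all tested genes per library had one. When Gbp6 and Gbp10 were added before the fit, the log2 change of their sum was -1.83 (edgeR adjusted p = 1.83e-04), close to that of Gbp6 alone.

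The effective length that RSEM gives a gene is the mean over its transcripts, weighted by their estimated abundance, so it moves when reads are assigned to other transcripts of the same gene. It was nearly constant between libraries for Gbp2 and Gbp5 (highest over lowest 1.004 and 1.03) and varied most among the tested members for Gbp3 (2.2-fold), Gbp7 (1.67-fold) and Gbp4 (1.53-fold). For Gbp9 it was 3128, 3478, 3333 and 3442 bases in control mice 1 to 4 and 4321, 3841, 4182 and 3884 bases in FAC mice 1 to 4. Every FAC value was higher than every control value, with means of 3345 ± 157 and 4057 ± 232 bases (SD, n = 4). A two-sided exact permutation test, added after the data had been seen, gave p = 0.0286, the smallest the design allows. After adjustment over the 10 members it was 0.286 and did not pass, which 1 member alone at this smallest p could not have done. An effective length more than 5% above every control library in every FAC library, a margin also set after the data had been seen, occurred in 0.142% of tested genes. Genes of nearly constant length, such as Gbp2, cannot reach this margin. The share of tested genes with every FAC value higher by any amount was not counted, so 0.142% does not say how rare such a separation is.

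Gbp9, which passed under no fit, changed sign between scales with and without the length, and also in some fits of counts with a library or mouse left out. By CPM it was higher with FAC in 2 of 4 mice, but by TPM it was lower in 3 of 4 mice, and with the effective lengths as offsets its edgeR log2 change was -0.25 in place of 0.05. Gbp7 was lower in 4 of 4 mice by CPM and in 1 of 4 by TPM. Gbp2, Gbp4, Gbp5 and Gbp6 were lower with FAC in 4 of 4 mice on both scales, and in TPM too their groups did not overlap, against 2.3% of all tested genes. With length offsets Gbp2 and Gbp6 still passed, and Gbp5 did not (adjusted p = 0.0839), with a log2 change of -0.43 ± 0.11 (SE) in place of -0.44 ± 0.10.

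**Figure D4:**
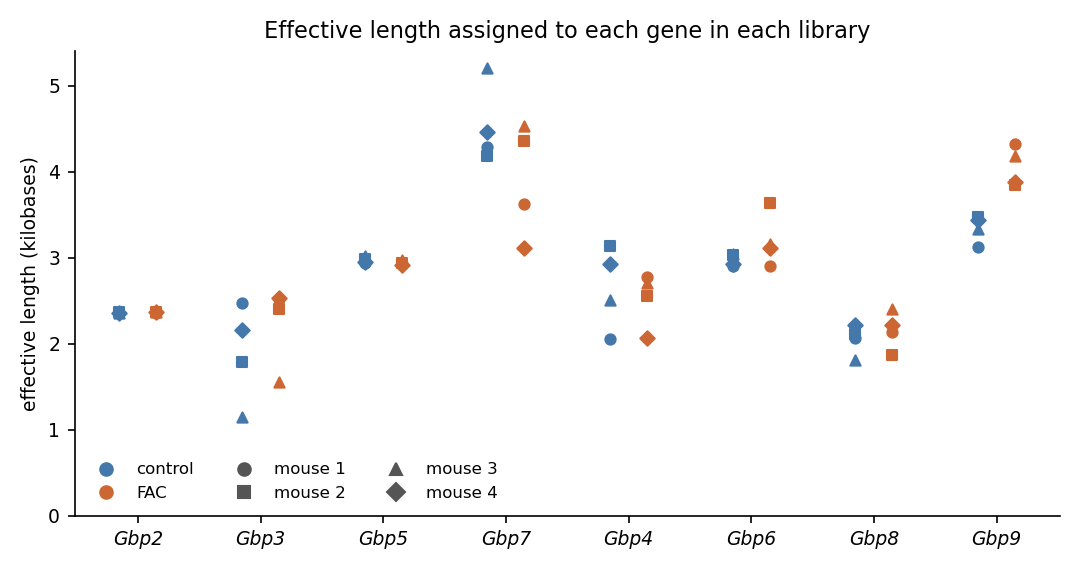
Effective length of each tested guanylate-binding protein gene in each library, in kilobases, with the control libraries in blue and the FAC libraries in orange. Gbp2 and Gbp5 stay at nearly the same length, the libraries of Gbp3, Gbp7 and Gbp4 scatter, and the 4 FAC libraries of Gbp9 lie above its 4 control libraries.

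Genes linked to the family were read from lists by role. Of the 13 genes of interferon gamma reception and JAK-STAT signalling reported here, edgeR called 0, with a median log2 change of -0.05. At an unadjusted edgeR p under 0.05 there were 3 of the 13, against 2463 of 13378 over all genes tested. These 3 were Ifngr1, Jak2 and Socs1, the last 2 named after their values were seen. DESeq2 called 1, Socs1. The count of genes called by edgeR was 1 without control mouse 4 or without FAC mouse 1. Ifng, the ligand, was 1.03 ± 0.19 CPM in the controls and 0.775 ± 0.065 CPM with FAC (SD, n = 4) and did not pass (edgeR adjusted p = 0.424). The receptor genes Ifngr1 (log2 change 0.20, edgeR adjusted p = 0.119) and Ifngr2 (-0.15, adjusted p = 0.372) did not pass either.

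The list drawn up for transcription factors of interferon-responsive promoters had a median log2 change of -0.0019. Of its 12 tested genes reported here, 3 passed and all 3 were lower. They were Irf1, 47.1 ± 10.9 CPM in the controls and 12.8 ± 1.7 CPM with FAC (log2 change -1.88, edgeR adjusted p = 4.99e-06), Irf8, 213.4 ± 16.5 and 123.5 ± 4.6 CPM (-0.79, adjusted p = 1.32e-06), and Tbx21. Tbx21 encodes the T helper 1 factor T-bet, which is not of the IRF family. Tbx21 had 72 to 204 counts in the control libraries and 1 to 9 in the FAC libraries, or 4.22 ± 1.48 and 0.168 ± 0.115 CPM (edgeR adjusted p = 1.68e-05). These 3 calls held when any 1 library was left out.

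The list of immunity-related GTPases had 6 of 11 tested genes lower and none higher, with a median log2 change of -0.77. Such GTPases are smaller, are induced by interferon and act on the same vacuoles. The list also held Gvin1, which is not one of these smaller GTPases and did not pass. Tgtp2 was 3.12 ± 0.62 CPM in the controls and 1.12 ± 0.10 CPM with FAC (log2 change -1.48, edgeR adjusted p = 0.00100), and Tgtp1, a near copy, was 2.85 ± 1.32 and 0.786 ± 0.181 CPM (-1.86, adjusted p = 0.00785). Iigp1 had 24 to 89 counts in the control libraries and 0 to 9 in the FAC libraries (edgeR adjusted p = 0.00483), and Gm12250 was 1.82 ± 0.39 and 0.710 ± 0.220 CPM (-1.35, adjusted p = 0.0194). The call of Gm12250 ended without control mouse 2 (adjusted p = 0.0723), control mouse 3 (0.0503), FAC mouse 2 (0.0595) or FAC mouse 3 (0.0765). With both cultures of mouse 2 left out the list had 2 genes called, and without mouse 3 it had 3.

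Of 10 genes of the immunoproteasome and of peptide loading onto MHC class I, 4 were lower and none was higher, with a median log2 change of -0.22. Erap1 (log2 change -0.24, edgeR adjusted p = 0.00220), Tap1 (-0.35, adjusted p = 0.00673), Tap2 (-0.31, adjusted p = 0.0115) and Psmb8 (-0.27, adjusted p = 0.0361) each had a smaller fitted change than Gbp5. Without FAC mouse 2 the list had 2 genes called, since Tap2 and Psmb8 then had adjusted p of 0.0531 and 0.101. Psmb8 was also lost without control mice 1, 2 or 3 (0.0569, 0.0918 and 0.0630) and without FAC mice 1 or 3 (0.0580 and 0.110).

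Other lists held genes that modify or assist the proteins, and large GTPases related to them. Among 12 enzymes of protein prenylation only Fdps, which makes farnesyl diphosphate, passed, 70.2 ± 4.4 CPM in the controls and 130.3 ± 8.6 CPM with FAC (log2 change 0.89, edgeR adjusted p = 9.31e-07). The transferase subunit genes Pggt1b (-0.06, edgeR adjusted p = 0.685) and Fntb (0.01, adjusted p = 0.942) did not pass. Of 12 autophagy conjugation genes, Atg16l1 passed (log2 change 0.21, edgeR adjusted p = 0.0303), and of 12 tested genes for atlastins, dynamins and other large GTPases, Ehd3 passed (0.38, adjusted p = 0.0303). Both of these calls were lost when some single libraries were left out. The edgeR adjusted p then reached 0.113 for Atg16l1 (without FAC mouse 3) and 0.11 for Ehd3 (without FAC mouse 2). Leaving out any control library or FAC mouse 2 or 3 ended the call of Atg16l1, and leaving out control mouse 1, 2 or 3 or FAC mouse 2 or 3 ended that of Ehd3. Of 5 tested inflammasome genes, edgeR and DESeq2 called 0, and 0 had an unadjusted edgeR p under 0.05.

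**Figure D5:**
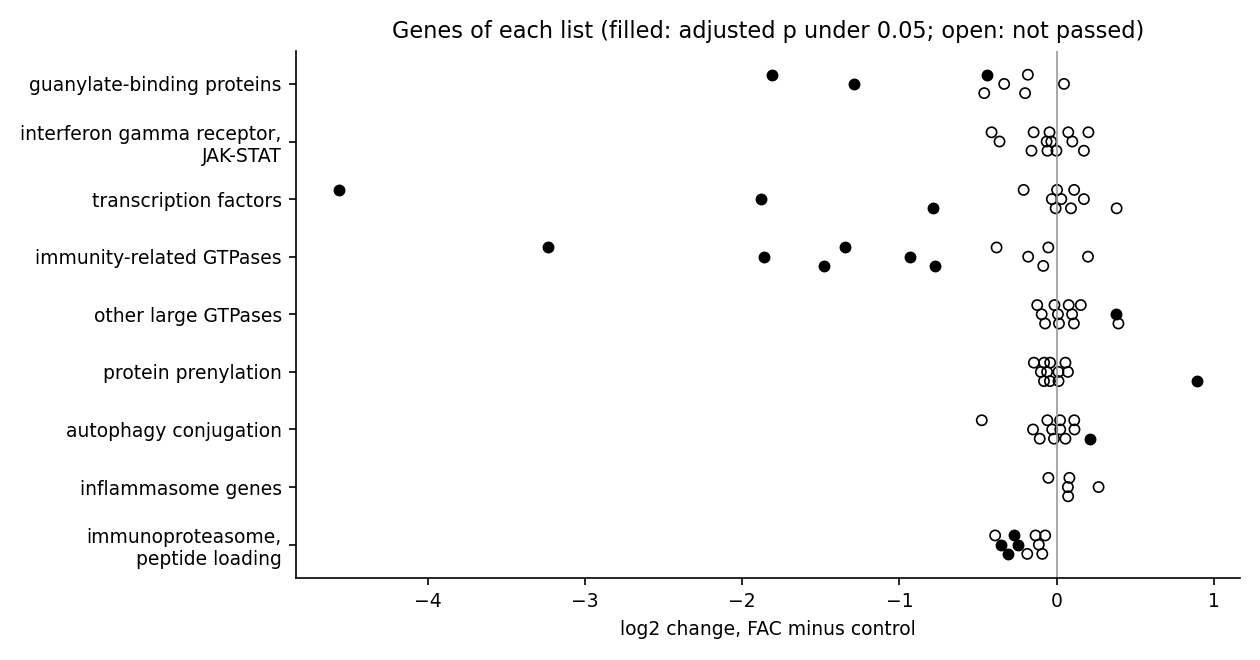
Log2 change with FAC of every tested gene of the guanylate-binding protein family and of the 8 lists, with 1 row per list and 1 point per gene, filled where the edgeR adjusted p was under 0.05. Filled points of the immunity-related GTPases and the transcription factors lie on the lower side, reaching -4.56 for Tbx21, and the single filled point of the prenylation list, Fdps, lies at 0.89.

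The genes whose pattern over the 8 libraries lay nearest to the mean of the 8 tested members, by Euclidean distance between centred log2 CPM values, were Gm6206 (distance 0.28), Ccl4 (0.29), Pmepa1 (0.30), Plekhm3 (0.31) and Gca (0.32). Ccl4, which encodes a chemokine, was 139.4 ± 7.3 CPM in the controls and 102.3 ± 2.7 CPM with FAC. These genes were picked for their likeness, so no test of it is given.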

How the data were processed

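STAR 2.7.6a and RSEM 1.3.1 appear among the tools of the submitters' processing notes, beside DESeq2 1.26.0 and the build GRCm39, without their order. Neither the annotation release nor the use of strand is given in the sources used here. For each library the authors deposited, per the file headers, RSEM expected counts per gene, TPM and effective lengths. They also deposited a table of normalised signal, whose scaling factors differ from gene to gene.

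Members, lists and comparisons were chosen with earlier results of these data known. Named genes were all members, up to 4 called genes per list by size of change, 7 pathway genes whatever their values, the 5 genes of nearest pattern, and Tfrc. Expected counts were rounded and tested with edgeR 4.0.16 (quasi-likelihood, TMM factors, minimum count 10, minimum total 15, R 4.3.3), by group alone, with Benjamini-Hochberg adjustment over 13378 genes, which hold 99.9% of counts. The test was tried first on simulated counts in which all genes shared the same dispersion (spread between replicates), a setting simpler than the real data. Protein sequences were not used here. Of the listed genes 2 are not reported here, and counts and medians of their lists leave them out. SEs are derived from the F statistic and approximate. Floors cover counting error only, while SDs and SEs include the variation between libraries. Mouse numbers in the labels pair the cultures of an animal. Deviations from group means correlated between the 2 cultures of a mouse at r = 0.205, 0.0568, 0.106 and 0.196 across genes, and the highest r with another mouse was 0.0479. Replicates of a group differed beyond sampling noise. Distances between patterns used log2(CPM + 0.5). Alternatives were DESeq2 1.42.0, other scaling, no filter, limma 3.58.1 on log2 TPM or signal, the mouse as a block, and left-out libraries or mice. Length offsets, pair ratios and length tests were additions made once the data were known.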

Additional observations from a re-analysis of the deposited data

Results flagged for a closer look

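Gbp9 in the FAC libraries was flagged because 1 library lay far from the others. FAC mouse 4 had 2.58 CPM, against 4.04, 4.30 and 4.30 CPM in the other 3, and the gap to the nearest of them was 0.845 of the group's whole range, above Dixon's critical value for 4 samples. The control culture of mouse 4 was also the lowest of its group for this gene, at 2.92 CPM. In all, 16 groups of 4 were examined, and chance alone flags about 1 in 20 groups.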

How the results depend on the processing

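Gbp2 and Gbp6 kept their direction and their call under all 21 alternatives, with log2 changes of -1.5 to -1.002 and -1.998 to -1.10. Gbp5 kept its direction under all 21 and its call under 8, and Gbp4 passed under 4 (DESeq2, no filter, replicate block, without control mouse 1). The count of members called was 2 to 4 when 1 library was left out, 2 to 3 when 1 mouse was left out, and 4 with the replicate block. Over all genes 438 were called, against 797 with DESeq2, 736 with no filter, 919 with the replicate block, 187 with length offsets, 217 with both, 144 and 138 with limma on log2(TPM + 1) and log2(TPM + 0.1), and 147 on the deposited signal. TPM moved the share of calls that were higher from 66.4% to 77.8% and 78.3%. Leaving out 1 library gave 147 (FAC mouse 3) to 549 (FAC mouse 1 or 4), and 168, 188, 209 and 247 without FAC mouse 2 or control mouse 1, 2 or 3. Leaving out 1 mouse gave 83 to 515. For these counts the cause was not tested.

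Gbp9, never called, changed sign under 9 alternatives: limma on TPM (-0.12, -0.20), on the signal (-0.26), length offsets (-0.25; with the replicate block -0.25), without control mouse 4 (-0.0499), without FAC mouse 2 or 3 (-0.02, -0.02) and without mouse 2 (-0.03). Of uncalled genes, Ifngr2 turned to 0.0156 and 0.0158 on the TPM scales. Pggt1b turned to 0.18 and 0.19 on TPM, 0.14 on the signal, 0.14 with length offsets and 0.15 with the block as well. Fntb turned to -0.0014 with no filter, -0.0426 on the signal, -0.0476 with length offsets and -0.0391 with the block as well, and it ran from -0.0484 (without mouse 1) to 0.0643 (without mouse 2) when libraries or mice were left out. Scales that use the effective length share that input, and otherwise the cause was not tested. The SEs of Gbp3, Gbp7, Gbp8 and Gbp9 were 0.25, 0.19, 0.29 and 0.18, against 0.10 for Gbp5 and 0.21 for Gbp6, and the part of depth in this was not tested. Of other named genes, calls held in 20 of 21 alternatives for Iigp1, 18 for Tap1, 16 for Erap1, 14 for Tgtp1, 13 for Tap2, 12 for Gm12250, 10 for Atg16l1, and 8 each for Psmb8 and Ehd3. Apart from Gbp4, no member's call differed with the replicate block.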
